A study of Mus musculus with 16 samples.

Results

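A set of 8 genes of phosphatidylserine recognition and engulfment were followed in primary mouse astrocytes, and they make up 8 of the 16707 genes in the deposited log2 CPM table (log2 of reads scaled to library size). They are the ligands Gas6 and Pros1, the receptors Axl, Mertk and Tyro3, and the engulfment genes Megf10, Gulp1 and Mfge8. The set was chosen by symbol, and all 8 symbols were in the table. Gas6 was put forward because its change with stimulation had been seen to be larger in Nlrx1-/- than in WT astrocytes, so its values in each genotype are given as a description without a test.

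Astrocytes came from whole brains of pups at postnatal day 6, either C57BL/6J wild type (WT) or Nlrx1-/-, a whole-body knockout of the mitochondrial innate immune receptor NLRX1 that affects every cell of the animal. Cells were selected with ACSA2 beads, which bind an astrocyte surface protein, and grown for about 10 days without serum in the presence of HB-EGF. A well of each set of pups was then given vehicle and another 500 ng/mL LPS with 10 ng/mL IFNγ for 24 h, which asks how loss of NLRX1 bears on the inflammatory response of these cells. The 16 poly-A libraries therefore form 4 groups of 4, namely WT vehicle, WT LPS+IFNγ, Nlrx1-/- vehicle and Nlrx1-/- LPS+IFNγ, with 8 litters (4 per genotype) as the replicates and both wells of a litter paired. Every group shares the bead selection, the growth factor and the culture period, and each litter has a single genotype, so litter and genotype cannot be separated beyond the spread between litters.

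Dying cells and shed membranes expose phosphatidylserine, and soluble bridging proteins link it to receptors on the engulfing cell. GAS6 and protein S (the product of Pros1) carry a domain of vitamin K-dependent gamma-carboxylated residues that binds phosphatidylserine, and they activate the receptor tyrosine kinases TYRO3, AXL and MERTK, together called TAM receptors, which promote engulfment and restrain innate immune signalling. In astrocytes, MERTK and MEGF10 serve in the removal of synapses and debris, GULP1 is an adaptor that binds the cytoplasmic tail of MEGF10, and MFG-E8 bridges phosphatidylserine to αv integrins.

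Total assigned reads ranged from 27259420 to 43752903 per library. Nlrx1 itself lay between 4.08 and 4.44 log2 CPM in the 8 WT libraries and between 1.09 and 2.96 in the 8 Nlrx1-/- libraries, without overlap. Astrocyte markers were abundant, with 10 genes summing to between 2692 and 6867 TPM (Salmon transcript abundance adjusted for length and library size) per library. The 14 microglia and macrophage markers summed to between 2.18 and 9.05 TPM, and Aif1, the gene of Iba1, was at 0 in 14 of 16 libraries. The microglial sum had similar ranges in all groups, at 2.45 to 6.54 TPM for WT with vehicle and 2.54 to 9.05 with LPS+IFNγ, and at 2.18 to 5.13 TPM for Nlrx1-/- with vehicle and 3.22 to 5.65 with LPS+IFNγ. Oligodendrocyte lineage markers were present in every library. In such bulk libraries, fewer cells of a type and less RNA per cell cannot be told apart.

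The sequence upstream of the start site is shown for Gas6, the gene that drew attention, for Pros1, the other ligand, and for Tyro3, the receptor with the largest fall. Each window holds the 250 bases before the RefSeq start on GRCm38.p6, read 5′ to 3′ on the gene's strand, with motif matches in capitals. Gas6 lies at chr8:13494536-13494785 on the minus strand, Pros1 at chr16:62854057-62854306 on the plus strand and Tyro3 at chr2:119799264-119799513 on the plus strand.
Gas6: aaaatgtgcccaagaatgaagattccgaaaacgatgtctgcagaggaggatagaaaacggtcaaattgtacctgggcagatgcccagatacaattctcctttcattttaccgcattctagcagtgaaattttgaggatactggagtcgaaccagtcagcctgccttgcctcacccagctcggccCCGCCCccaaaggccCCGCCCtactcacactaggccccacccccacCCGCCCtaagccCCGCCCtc
Pros1: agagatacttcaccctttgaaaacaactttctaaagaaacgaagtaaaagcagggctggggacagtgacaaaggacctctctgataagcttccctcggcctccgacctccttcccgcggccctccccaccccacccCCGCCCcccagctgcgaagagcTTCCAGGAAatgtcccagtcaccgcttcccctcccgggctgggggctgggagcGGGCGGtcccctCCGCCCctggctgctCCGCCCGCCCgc
Tyro3: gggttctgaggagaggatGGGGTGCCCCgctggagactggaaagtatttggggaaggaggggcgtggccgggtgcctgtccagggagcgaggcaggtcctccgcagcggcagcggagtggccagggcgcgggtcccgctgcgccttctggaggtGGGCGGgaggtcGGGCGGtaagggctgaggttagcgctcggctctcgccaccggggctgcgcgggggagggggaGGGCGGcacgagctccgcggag
These motifs were searched on both strands: the interferon-gamma-activated site TTCNNNGAA, the interferon-stimulated response element GAAANNGAAA, the NF-κB consensus, the AP-1 site TGANTCA, the E-box CACGTG and the GC box GGGCGG. The Pros1 window held an interferon-gamma-activated site, TTCCAGGAA, starting 92 bases before the start, which 7.02% of the 32851 windows of this length also held. The Tyro3 window held an NF-κB match, GGGGTGCCCC, starting 232 bases before the start, against 7.25% of windows. The Gas6 window held neither motif. GC boxes, found in 32.7% of windows, were present in all 7 members with a window: 4 in Gas6, 5 in Pros1, 1 in Axl, 3 in Mertk, 3 in Tyro3, 1 in Gulp1 and 4 in Mfge8. Overlapping matches count singly, and no window of the 7 held the interferon-stimulated response element, AP-1 or E-box letters, which 2.98%, 6.75% and 6.02% of windows held. A match describes letters only.

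Length-adjusted levels set the members apart. In WT vehicle astrocytes Mfge8 was highest at 663 ± 197 TPM (SD, n = 4), followed by Axl at 95.5 ± 1.71, Tyro3 at 71.6 ± 7.24 and Pros1 at 65.0 ± 4.97 TPM. Megf10 at 40.1 ± 4.54, Gas6 at 35.5 ± 6.89, Gulp1 at 26.7 ± 3.12 and Mertk at 6.61 ± 0.588 TPM followed. Neighbours in this order overlapped in their ranges for Tyro3 and Pros1, for Megf10 and Gas6, and for Gas6 and Gulp1, while Mfge8, Axl and Mertk stood clear of their neighbours. After LPS+IFNγ in Nlrx1-/- astrocytes Mfge8 was still highest at 198 ± 63.5 TPM, followed by Pros1 at 95.6 ± 6.28 and Axl at 83.8 ± 10.7. Gas6, at 45.2 ± 6.32 TPM, then stood above Tyro3 at 26.2 ± 6.85, the reverse of their order in vehicle. Their ranges did not overlap (37.0 to 51.0 against 18.0 to 32.2 TPM). In WT after LPS+IFNγ they did overlap, with Gas6 at 36.4 ± 4.86 TPM (31 to 41.7) and Tyro3 at 39.8 ± 2.83 (37.3 to 43.7). Gas6 was chosen for its change in Nlrx1-/-, so the crossing there is a description only. Mertk TPM is understated, because part of its transcripts could not be paired with a gene symbol, and its level on the deposited log2 CPM scale lay 0.37 to 0.66 above that of its summed counts, as described below.

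**Figure D1:**
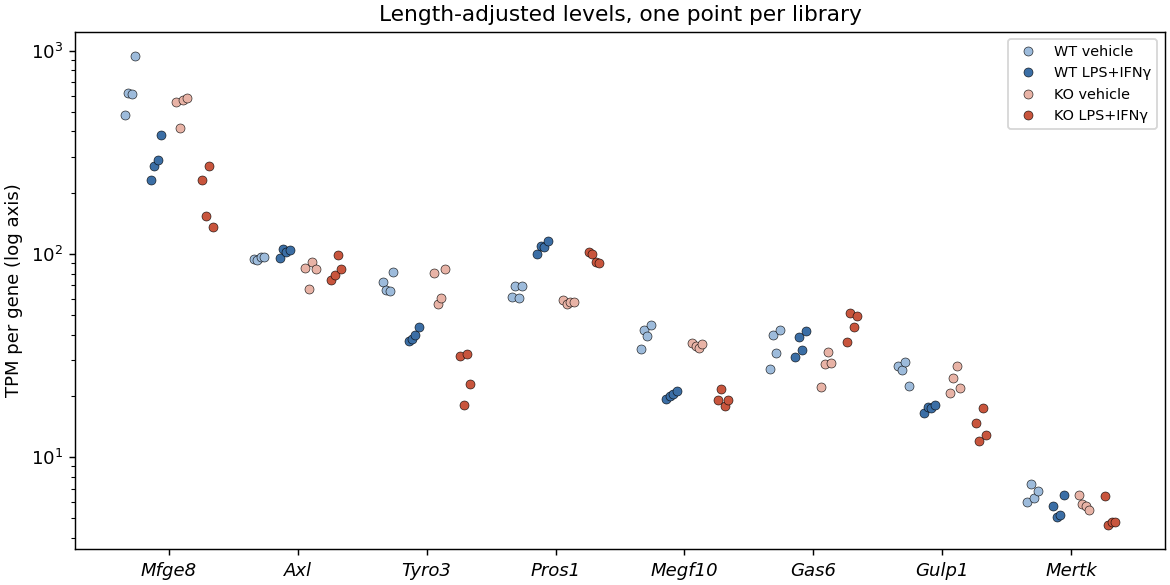
Length-adjusted level of each gene in TPM (log axis), with a point for each of the 16 libraries coloured by group and genes ordered by their WT vehicle mean. Mfge8 is the highest gene in every group, and Pros1 is higher after stimulation in both genotypes. Tyro3 drops below Gas6 in Nlrx1-/- LPS+IFNγ and overlaps it in WT LPS+IFNγ.

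Averaged over both genotypes, LPS+IFNγ raised both ligands and Axl and lowered Tyro3, Megf10, Gulp1 and Mfge8, while Mertk did not pass the test. The rise of Axl turned on the scaling, as described below. All 8 members passed the filter on low counts. In edgeR's quasi-likelihood test with Benjamini-Hochberg adjustment over 16070 genes, 3 of the 8 were higher and 4 lower at an adjusted p below 0.05. The 3 include Gas6, whose average takes in the Nlrx1-/- changes that drew attention to it. Over all genes tested, 59.5% were called in this comparison (29.7% higher and 29.8% lower), so a called gene is the more common case here. The median change of the 8 was -0.26 on the log2 scale, against -0.024 over all genes tested.

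Gas6, on chr8:13515371-13544824 (GRCm39, minus strand), encodes the ligand that binds all the TAM receptors. In WT litters 1 to 4 its level was 5.02, 5.61, 5.30 and 5.69 log2 CPM in vehicle and 5.41, 5.83, 5.59 and 5.87 after LPS+IFNγ. In Nlrx1-/- litters 1 to 4 it was 4.78, 5.22, 5.37 and 5.20 in vehicle and 5.70, 6.25, 5.93 and 6.17 after LPS+IFNγ. Every litter was higher after stimulation, and in the Nlrx1-/- litters the stimulated wells all lay above the vehicle wells, whereas the WT wells overlapped between treatments. That contrast is a description only, since Gas6 was chosen for its change in Nlrx1-/-. The litter-paired change was 0.39, 0.22, 0.29 and 0.18 in WT (0.27 ± 0.09, SD, n = 4) and 0.91, 1.03, 0.56 and 0.97 in Nlrx1-/- (0.87 ± 0.21, n = 4). The Nlrx1-/- changes thus all exceeded the WT changes, the nearest being 0.558 and 0.386, with a mean difference of 0.60 on the log2 scale. Since this difference is what drew attention to Gas6 it is given without a test, beside the 3.06% of all 16707 genes whose Nlrx1-/- litter changes all lay above those of WT.

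The fitted change of Gas6 was 0.26 (SE 0.07) in WT and 0.85 (SE 0.07) in Nlrx1-/-. Its average over the genotypes was a log2 fold change of 0.56 (SE 0.05, edgeR adjusted p = 6.11e-06), with 8 of 8 litters higher. This was the only contrast tested for Gas6, as it is independent of the genotype difference when both genotypes have equal numbers and spread. The litter changes had an SD of 0.09 in WT and 0.21 in Nlrx1-/-, so this independence is not complete. The average also includes the Nlrx1-/- changes that drew attention. The share of all genes with 8 of 8 litters higher was not computed. Gas6 in Nlrx1-/- was lower than in WT in vehicle by a fitted value of -0.28 (SE 0.16) and higher after LPS+IFNγ by 0.32 (SE 0.16), with overlapping libraries in both treatments. The WT change was small enough to turn on the scaling. On the TPM scale, which is not adjusted for library composition, the WT litters went from 27.1 to 31, from 39.8 to 39.1, from 32.7 to 33.7 and from 42.2 to 41.7, so that they did not share a direction. The Nlrx1-/- litters went from 22.1 to 37.0, from 28.8 to 51.0, from 32.8 to 43.6 and from 28.9 to 49.2 TPM, higher in all. With library totals in place of TMM (edgeR's composition-adjusted library scaling), a choice that moves the median of all genes in the average response from -0.024 to -0.186, the WT value was 0.096, the Nlrx1-/- value 0.689 and the average 0.393 (edgeR adjusted p = 5.97e-05).

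Gas6 was quantified from a single transcript of 2594 bases, at 1014 to 2484 reads per library. Exons of Tmem255b on the opposite strand share 154 of its 5500 annotated exon bases, and these libraries do not keep strand. Tmem255b lay between 2.11 and 4.30 log2 CPM, below Gas6 in every library. Exons of predicted genes on the opposite strand also overlap Pros1, Mertk and Mfge8.

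Pros1, on chr16:62674275-62749710 (GRCm39, plus strand), encodes protein S, which acts as a ligand mainly of TYRO3 and MERTK and as an anticoagulant cofactor. In WT it stood at 6.38, 6.59, 6.37 and 6.59 log2 CPM in vehicle and at 7.28, 7.50, 7.45 and 7.51 after LPS+IFNγ. In Nlrx1-/- the values were 6.39, 6.38, 6.37 and 6.39 in vehicle and 7.35, 7.39, 7.16 and 7.22 after LPS+IFNγ. Stimulated and vehicle wells were fully separated in both genotypes, and the vehicle wells of Nlrx1-/- were nearly identical. Separation of treatments, here and for the other members, is a description only, because its share over all genes was not computed. Pros1 rose by a log2 fold change of 0.94 in WT (SE 0.05, edgeR adjusted p = 2.74e-07) and of 0.89 in Nlrx1-/- (SE 0.05, edgeR adjusted p = 4.14e-07). The 7 members tested within a genotype included 2 that were higher and 4 that were lower in WT, where 43.9% of all genes were called (23.7% higher and 20.2% lower), and likewise 2 and 4 in Nlrx1-/-, where 49.4% were (25.2% higher and 24.2% lower). The litter changes of Pros1, 0.90 to 1.09 in WT and 0.80 to 1.01 in Nlrx1-/-, overlapped, with a difference of -0.05 (exact permutation test over litters, two-sided, p = 0.429).

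**Figure D2:**
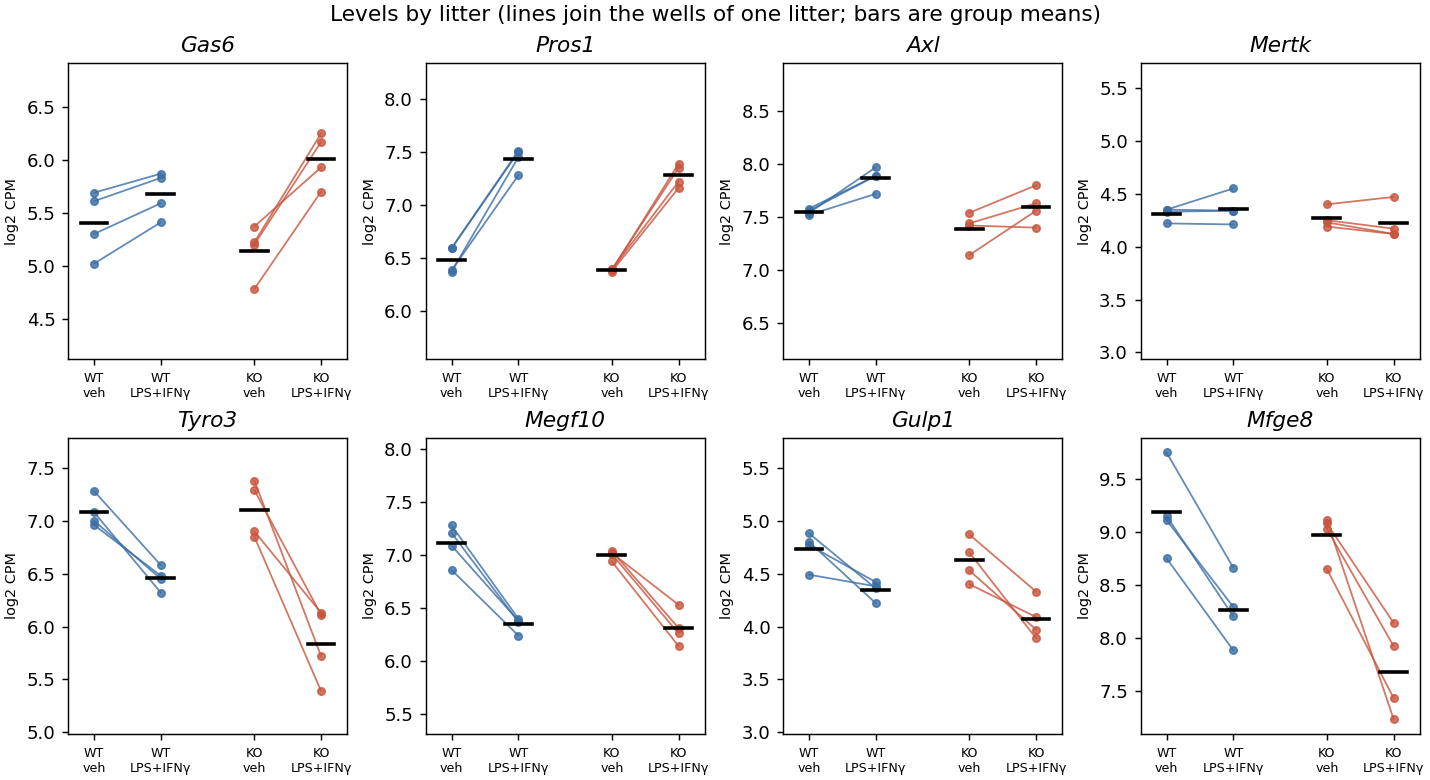
Deposited log2 CPM of each gene, with each line joining the vehicle and LPS+IFNγ wells of a litter (blue, WT; red, Nlrx1-/-, marked KO) and black bars at the group means; every panel spans the same range of log2 units. Gas6 lines are steeper in Nlrx1-/- (mean change 0.87 against 0.27), Pros1 lines rise alike, and Tyro3, Megf10, Gulp1 and Mfge8 fall in every litter.

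The TAM receptors moved in different directions. Axl, on chr7:25456535-25488329 (GRCm39, minus strand), is the receptor with the highest affinity for GAS6. It stood at 7.52, 7.54, 7.56 and 7.58 log2 CPM in WT vehicle and at 7.72, 7.97, 7.89 and 7.89 in WT LPS+IFNγ. In Nlrx1-/- it stood at 7.42, 7.14, 7.54 and 7.44 in vehicle and at 7.40, 7.56, 7.80 and 7.63 after LPS+IFNγ. The WT groups did not overlap, the Nlrx1-/- groups did, and litter 1 of Nlrx1-/- was the only litter without a gain, at -0.02. Axl rose by 0.31 in WT (SE 0.07, edgeR adjusted p = 0.00421) and by 0.20 in Nlrx1-/- (SE 0.07, edgeR adjusted p = 0.0342).

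The rise of Axl was relative to a scaling that counts the median gene as nearly unmoved. With library totals it was 0.146 in WT (edgeR adjusted p = 0.0846) and 0.034 in Nlrx1-/- (edgeR adjusted p = 0.683), and neither passed. The average over both genotypes was then 0.090 (edgeR adjusted p = 0.107) and did not pass either. The Nlrx1-/- call was also lost without litter 2, 3 or 4 of that genotype, at edgeR adjusted p of 0.154, 0.104 and 0.064. Axl did not differ detectably between genotypes in its change, with a difference of -0.11 (exact permutation test, p = 0.343). The most abundant Axl transcript was a predicted RefSeq model of 4225 bases, with group means between 63.8% and 66.8% of the gene's TPM.

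Tyro3, on chr2:119628214-119648738 (GRCm39, plus strand), is the TAM receptor typical of the nervous system. In WT litters 1 to 4 it was at 7.08, 7.0, 6.96 and 7.28 log2 CPM in vehicle and at 6.32, 6.45, 6.48 and 6.58 after LPS+IFNγ. In Nlrx1-/- litters 1 to 4 it was at 7.29, 6.85, 6.90 and 7.38 in vehicle and at 6.11, 5.39, 6.13 and 5.72 after LPS+IFNγ. Vehicle and stimulated wells were separated in both genotypes, and after LPS+IFNγ every Nlrx1-/- well lay below every WT well, while the vehicle wells overlapped. The fitted fall of Tyro3 was -0.63 in WT (SE 0.12, edgeR adjusted p = 0.00164) and -1.28 in Nlrx1-/- (SE 0.12, edgeR adjusted p = 1.31e-05) on the log2 scale. In the litter pairs the change was -0.77, -0.54, -0.48 and -0.70 in WT and -1.19, -1.46, -0.77 and -1.66 in Nlrx1-/-.

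The difference between these changes was -0.65 (exact permutation test over litters, two-sided, p = 0.0286, the smallest value that 4 against 4 litters allow). The litters were separated only narrowly, with -0.766 in WT litter 1 and -0.767 in Nlrx1-/- litter 3, and on counts summed per gene the same test gave a difference of -0.653 and an exact p of 0.0571. Over all genes, 5.25% had Nlrx1-/- litter changes that all lay below those of WT, and 8.31% were separated in either direction. In the edgeR fit across genes the interaction of genotype and stimulation for Tyro3 was -0.65 (SE 0.17, edgeR adjusted p = 0.219) and did not pass. That fit called 0% of genes for the interaction, with 2469 of 16070 at an unadjusted p below 0.05 and a lowest adjusted p of 0.218, whereas DESeq2 called 2.34% of them, Tyro3 included, at -0.639 (DESeq2 adjusted p = 0.0214). Leaving out single litters, edgeR gave -0.827 to -0.513 with adjusted p from 0.0326 to 0.464, and the omission of Nlrx1-/- litter 3 was the only omission that passed.

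**Figure D3:**
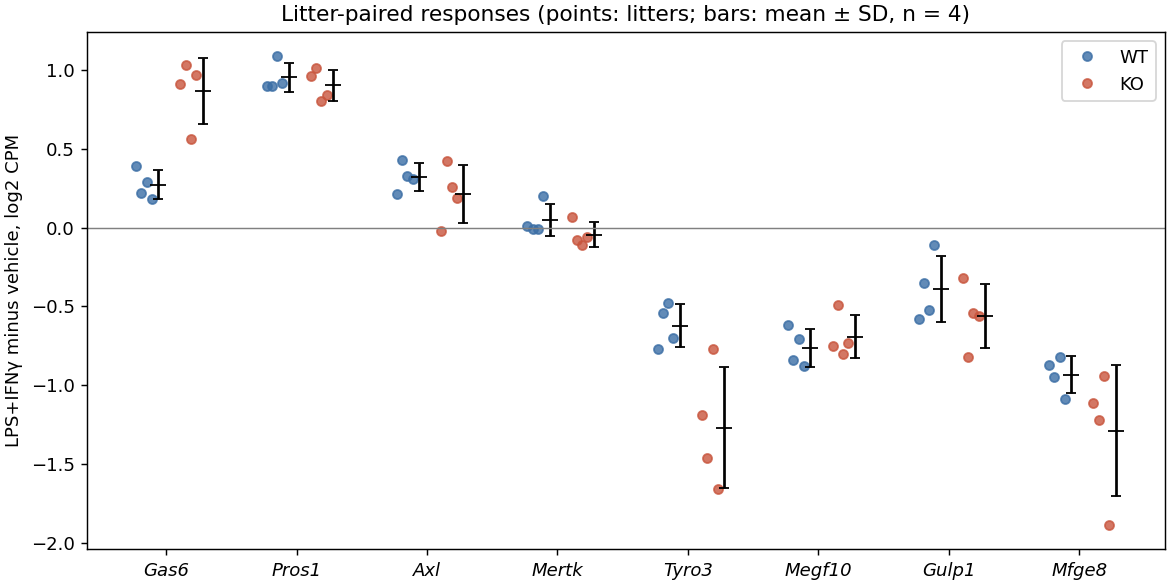
Change from vehicle to LPS+IFNγ in each litter, in log2 CPM, for WT (blue) and Nlrx1-/- (red, marked KO), with black bars for the mean ± SD of 4 litters. The genotypes do not overlap for Gas6 (0.27 ± 0.09 against 0.87 ± 0.21) or, narrowly, for Tyro3 (-0.62 ± 0.13 against -1.27 ± 0.39), and they overlap for the other 6 genes.

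Mertk, on chr2:128540729-128645080 (GRCm39, plus strand), encodes the TAM receptor that carries much of the engulfing activity of phagocytes. Its group means were 4.31 ± 0.06 log2 CPM for WT with vehicle and 4.36 ± 0.14 with LPS+IFNγ, and 4.27 ± 0.09 for Nlrx1-/- with vehicle and 4.22 ± 0.17 with LPS+IFNγ (SD, n = 4). All 4 groups overlapped, and the litter changes ran from -0.11 to 0.20. Mertk counts summed here, 330 to 608 reads per library, fall short of the deposited level because some of its transcripts had no symbol to match, so the deposited log2 CPM is the better guide. On that table limma gave an average change of 0.00 (limma adjusted p = 0.991), and on the summed counts edgeR gave -0.03 (SE 0.07, edgeR adjusted p = 0.693). With library totals the latter became -0.196 (edgeR adjusted p = 0.0332), about the shift of the median gene.

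The remaining engulfment genes were all lower after stimulation. Megf10, on chr18:57266162-57430693 (GRCm39, plus strand), encodes an engulfment receptor of astrocytes. It went from 6.86, 7.21, 7.09 and 7.28 log2 CPM in WT vehicle to 6.24, 6.37, 6.38 and 6.40 with LPS+IFNγ, and from 7.01, 7.02, 6.94 and 7.04 to 6.26, 6.53, 6.14 and 6.31 in Nlrx1-/-. Treatments were separated in both genotypes, and the genotypes overlapped in each treatment. The fitted fall of Megf10 was -0.77 in WT (SE 0.06, edgeR adjusted p = 4.64e-06) and -0.71 in Nlrx1-/- (SE 0.06, edgeR adjusted p = 7.79e-06), and the litter changes differed by 0.07 (exact permutation test, p = 0.514).

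Gulp1, on chr1:44590595-44836044 (GRCm39, plus strand), encodes the adaptor through which MEGF10 and LRP1 signal. Its level was 4.80, 4.77, 4.88 and 4.49 log2 CPM in WT vehicle and 4.22, 4.42, 4.36 and 4.38 with LPS+IFNγ, against 4.40, 4.70, 4.87 and 4.53 and then 4.09, 3.89, 4.33 and 3.97 in Nlrx1-/-. Each genotype showed lower stimulated wells without overlap, although WT litter 4 changed by -0.11 only. Its fitted fall was -0.40 in WT (SE 0.10, edgeR adjusted p = 0.0081) and -0.57 in Nlrx1-/- (SE 0.10, edgeR adjusted p = 0.000812). The difference in litter changes was -0.17 (exact permutation test, p = 0.343).

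Mfge8, on chr7:78783515-78798825 (GRCm39, minus strand), encodes MFG-E8, a secreted bridge from phosphatidylserine to αv integrins. Its level in WT was 8.75, 9.15, 9.11 and 9.75 log2 CPM in vehicle and 7.88, 8.20, 8.29 and 8.66 with LPS+IFNγ. In Nlrx1-/- it was 9.03, 8.65, 9.08 and 9.11 in vehicle and 7.92, 7.43, 8.14 and 7.23 with LPS+IFNγ. Vehicle wells lay above stimulated wells in both genotypes, and litter 4 of Nlrx1-/- had the steepest change, at -1.89. Mfge8 had a fitted fall of -0.94 in WT (SE 0.12, edgeR adjusted p = 0.000145) and of -1.30 in Nlrx1-/- (SE 0.13, edgeR adjusted p = 1.42e-05). The litter changes, -1.09 to -0.82 in WT and -1.89 to -0.94 in Nlrx1-/-, overlapped, with a difference of -0.36 (exact permutation test, p = 0.0857).

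The next comparison asks whether levels differed between genotypes within a treatment. In vehicle, none of the 7 members tested was called by edgeR, where 0% of all genes were called, 3156 of 16070 had an unadjusted p below 0.05 and the lowest adjusted p was 0.0533; DESeq2 called 5.07% of all genes but none of these 7. Estimates in vehicle ran from -0.27 for Mfge8 (SE 0.23) to 0.03 for Tyro3 (SE 0.15). After LPS+IFNγ, Tyro3 was lower in Nlrx1-/- by a log2 fold change of -0.61 (SE 0.16, edgeR adjusted p = 0.0454) and was the only call among the 7 (0 higher, 1 lower), against 5.03% of all genes called (2.64% higher and 2.39% lower). All 4 Nlrx1-/- wells of Tyro3 lay below the WT wells, as they did for 6.23% of all genes, with 7.09% above and 13.3% in either direction. In vehicle no member was separated in this way, against 9.45% of all genes (6.02% above and 3.43% below).

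The fit behind these contrasts took its spread from all 16 libraries as if the paired wells of a litter were independent. The Tyro3 call sat close to the threshold. It was lost without WT litter 2, 3 or 4 (edgeR adjusted p of 0.132, 0.139 and 0.15) and without Nlrx1-/- litter 1, 2 or 4 (edgeR adjusted p of 0.0515, 0.0856 and 0.148), and with only the 8 stimulated libraries (-0.602, edgeR adjusted p = 0.0756). Tyro3 kept its sign throughout, with estimates from -0.713 to -0.477. Axl was at -0.28 after LPS+IFNγ (SE 0.09, edgeR adjusted p = 0.0678), Mfge8 at -0.57 (SE 0.23, edgeR adjusted p = 0.116), Gulp1 at -0.28 (SE 0.12, edgeR adjusted p = 0.135) and Pros1 at -0.17 (SE 0.07, edgeR adjusted p = 0.142). These 4 did not pass; without Nlrx1-/- litter 3, Axl, Gulp1 and Mfge8 passed together with Tyro3 (edgeR adjusted p of 0.0112, 0.0242 and 0.0385 for those 3).

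**Figure D4:**
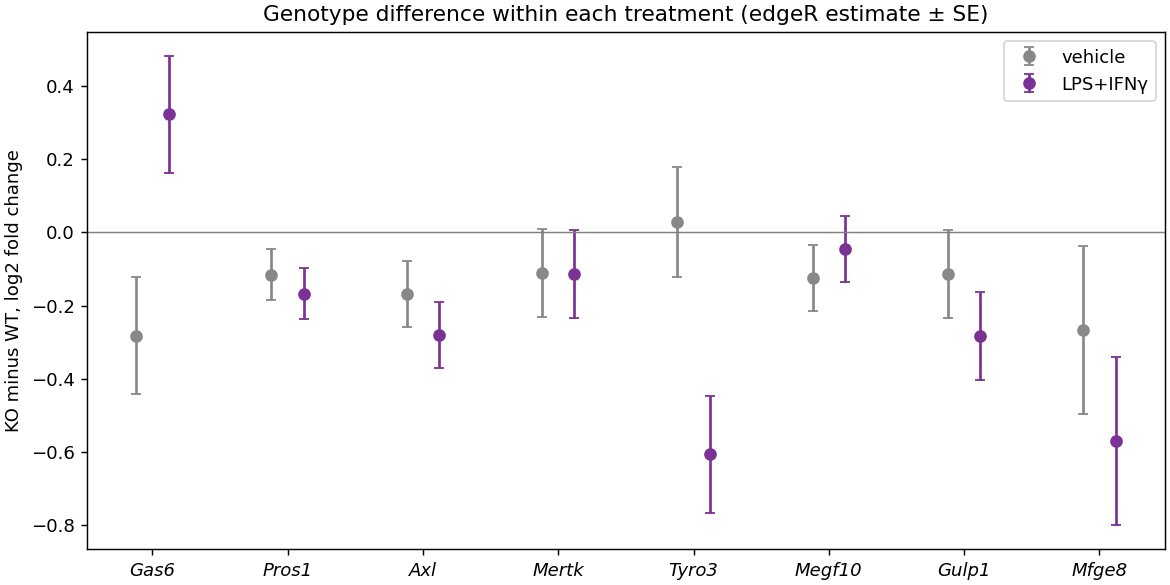
Fitted difference of Nlrx1-/- (KO) minus WT for each gene in log2 units, in vehicle (grey) and after LPS+IFNγ (purple), with bars for ± 1 SE from edgeR. Tyro3 moves from 0.03 in vehicle to -0.61 after LPS+IFNγ, and Gas6, shown without a test, from -0.28 to 0.32.

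Markers of other cells moved with the same groups. The 5 oligodendrocyte markers summed to 187 to 421 TPM for WT with vehicle and 55.6 to 196 with LPS+IFNγ, and to 14.8 to 297 TPM for Nlrx1-/- with vehicle and 3.56 to 77.5 with LPS+IFNγ, and all 5 were detected in some libraries, with Mog at or near 0 (at most 0.514 TPM). The 5 precursor markers, Olig1 foremost, ranged from 2048 to 2784, 1498 to 2267, 2114 to 3162 and 1551 to 2144 TPM in the same order. The astrocyte sum itself ranged from 4227 to 6867, 3428 to 5044, 2980 to 4999 and 2692 to 3873 TPM. All of these sums were lower on average after stimulation, in the direction of Tyro3, Megf10, Gulp1 and Mfge8, and their part in these results was not tested. The astrocyte markers did not all fall. Atp1b2 went from 579 to 719 TPM to 292 to 386 in WT, and from 356 to 565 to 208 to 317 in Nlrx1-/-. Aldh1l1 instead rose, from 464 to 546 TPM to 624 to 697 in WT, and from 506 to 578 to 578 to 646 in Nlrx1-/-. Slc1a3 lay between 1062 and 1323 TPM in all groups. After LPS+IFNγ the mean sums were also lower in Nlrx1-/- than in WT, the direction of the Tyro3 difference between genotypes. They were 3118 against 4191 TPM for astrocyte, 27.3 against 124 for oligodendrocyte and 1776 against 1836 for precursor markers, each with overlapping ranges. In vehicle, where the fitted Tyro3 difference was 0.03, they were 3900 against 5409 TPM for astrocyte and 116 against 293 for oligodendrocyte markers. The precursor mean in vehicle was higher in Nlrx1-/-, at 2741 against 2260 TPM. The 4 ependymal markers also were lower, at 162 to 232, 101 to 134, 94.2 to 169 and 51.1 to 93.4 TPM. Their means were 73 in Nlrx1-/- and 114 in WT after LPS+IFNγ, and 131 and 196 in vehicle. The 6 neuronal markers summed to at most 27.5 TPM in vehicle and to between 68.0 and 107 after LPS+IFNγ, nearly all of it Tubb3 (57.3 to 92.7 TPM). The 5 endothelial markers stayed at or below 1.76 TPM, and the 7 fibroblast and mural markers between 6.21 and 33.9 TPM.

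The genes whose levels followed Gas6 most closely over the 16 libraries were Cited2 and Zfp217 (Pearson r of 0.91 each), Tax1bp1 and Max (0.90 each) and Ociad1 (0.89), among 11982 genes compared. Cited2 changed by 0.87 in WT and 1.23 in Nlrx1-/- on the log2 scale, and Ociad1 by 0.11 and 0.24. Among the members, Pros1 had an r of 0.75 with Gas6, Axl 0.49 and Mertk -0.21, while Gulp1 had -0.65, Mfge8 -0.61, Megf10 -0.56 and Tyro3 -0.80. These are descriptions over libraries that share 4 groups and, in pairs, litters, so the points are not independent.

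Genes around the TAM pathway were read from 7 lists with 55 genes, of which 46 passed the filter. In the average response edgeR called 20 of them higher and 16 lower, against 29.7% and 29.8% of all genes, with a median change of 0.04. With library totals the counts were 12 and 21. Of 3 genes of the vitamin K cycle, which gamma-carboxylates GAS6 and protein S, 2 were lower (all 3 with library totals), Vkorc1 by -0.26 and Vkorc1l1 by -0.25 (log2; edgeR adjusted p = 0.0268 and 0.00102). Of 4 genes of TAM receptor shedding, 2 were higher and 2 lower (1 and 2 with library totals). Rhbdf2, which encodes iRhom2, the partner that matures the sheddase ADAM17, was higher by 4.23 (SE 0.17, edgeR adjusted p = 7.09e-09), with Rhbdf1 at -0.17 and Adam17 itself at -0.11 (edgeR adjusted p = 0.0219 and 0.0303).

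Other engulfment receptors went in both directions. Of 17 listed, 11 were tested, 5 were higher and 4 lower (4 and 4 with library totals). Scarf1, a scavenger receptor related to MEGF10, was higher by 2.33 (SE 0.59, edgeR adjusted p = 0.00592), Itgb3, the integrin β3 subunit that pairs with αv to bind MFG-E8, by 1.72 (SE 0.21, edgeR adjusted p = 3.65e-05) and Scarb1, a lipoprotein and phosphatidylserine receptor, by 0.69 (SE 0.09, edgeR adjusted p = 5.15e-05). Of 13 signalling genes, 5 were higher and 6 lower, with library totals 2 and 8. Elmo1 and Elmo2, subunits of the exchange factor that activates RAC1, moved apart, at -0.75 (edgeR adjusted p = 1.55e-07) and 0.74 (edgeR adjusted p = 6.78e-06), and the lipid transporter Abca7 was at -0.45 (edgeR adjusted p = 0.00262).

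Of 11 genes of phosphatidylserine exposure and the CD47 signal, 10 were tested, 5 were higher and 1 lower (3 and 2 with library totals). Cd47, which encodes the surface protein that inhibits engulfment, was higher by 1.71 (SE 0.12, edgeR adjusted p = 5.07e-07), while Sirpa, the receptor of CD47, was at -0.37 (edgeR adjusted p = 6.02e-05). Of the other proposed TAM ligands Tub, encoding tubby, was lower by -1.07 (edgeR adjusted p = 5.39e-07) and Lgals3 did not pass (it did, as lower, with library totals). All 3 tested genes of TAM feedback were higher (2 with library totals), Socs1 by 6.25 (edgeR adjusted p = 4.03e-11), Socs3 by 0.83 (edgeR adjusted p = 6.74e-05) and Twist1 by 0.63 (edgeR adjusted p = 0.0284). Socs1 and Socs3 are also direct targets of interferon and cytokine receptors. By edgeR, 0 genes of these lists were called for the interaction or between genotypes in vehicle, where DESeq2 called 1 lower for the interaction and 1 higher and 1 lower in vehicle. After LPS+IFNγ edgeR called 3 of the 46 between genotypes, a share near the 5.03% of all genes (2.64% higher and 2.39% lower). They are named after their values were seen: Ptk2 at 0.45 and Trio at 0.31 were higher in Nlrx1-/- (edgeR adjusted p = 0.0487 and 0.0397) and Itgb5 at -0.30 was lower (edgeR adjusted p = 0.0487). Over the alternatives run these counts ranged from 0 to 4 in each direction.

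**Figure D5:**
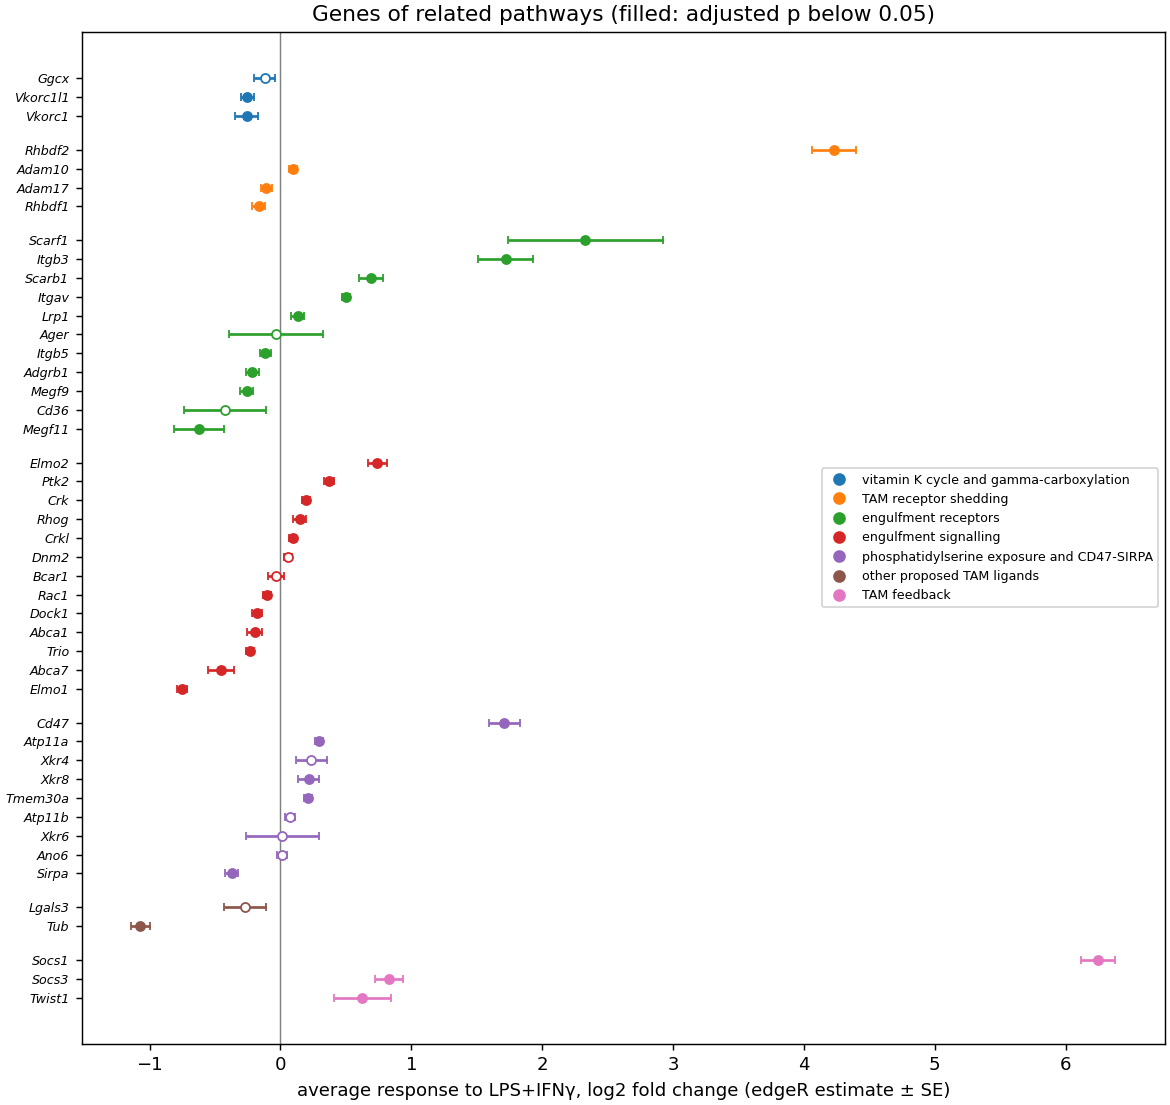
Average change with LPS+IFNγ of tested genes of related pathways in log2 units, with bars for ± 1 SE from edgeR, coloured by list, filled where the adjusted p was below 0.05. Socs1 (6.25), Rhbdf2 (4.23) and Scarf1 (2.33) lie far to the right, and Tub (-1.07) and Elmo1 (-0.75) farthest to the left.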

How the data were processed

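Poly-A RNA of 16 astrocyte cultures was sequenced without strand information. The authors quantified transcripts with Salmon 1.7.0 on the GRCm39 transcriptome and deposited expected counts (fractional estimated counts) and TPM per transcript for each library. They also deposited a log2 CPM table per gene made with limma-voom (limma 3.58.1 in the submitters' processing notes), which served for levels and litter changes. A linear CPM table was not used, because its columns do not sum as CPM should.

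Transcripts were paired with symbols by RefSeq accession (106440 of 129698 transcripts, 96.715% to 97.265% of reads), and expected counts were summed per gene. The sums were rounded for DESeq2 only. Tests used edgeR 4.0.16 in R 4.3.3 (quasi-likelihood, TMM, length offsets, filterByExpr with a minimum count of 10) on all 16 libraries. The responses were fitted with litter terms within genotype, as in the study's methods, and the genotype contrasts without them, because a litter holds a single genotype. The genotype contrasts therefore counted the paired wells of a litter as independent. Calls took an adjusted p below 0.05 over 16070 genes. Litters were compared by an exact permutation test, without adjustment over the members. DESeq2 1.42.0, limma on the deposited log2 CPM, other scalings, no filter, no length offsets, other blocks and leaving out each litter were alternatives. The series' design text pairs the wells of a litter, and their deviations from group means correlated at 0.26 to 0.62 in all 8 litters. Fits were also run on simulated counts in which 200 of 16070 genes changed by 1 log2 unit. They recovered 76.5% of these in the average response, 42.5% in the interaction and 62.5% between genotypes after LPS+IFNγ. Of the calls made, 6.13%, 4.49% and 4.58% were genes left unchanged. In the data themselves 59.5% of genes were called in the average response, a far larger share than was changed in the simulation. These rates therefore do not give the power of the tests on the members.

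All 8 members were named whatever their values, with up to 3 called genes of each related list by size of average change and the 5 genes nearest Gas6 in r, except that 1 gene of these lists is not reported here. Members and lists were chosen with earlier results of these data known. Promoter windows came from RefSeq on GRCm38.p6 (7 of 8 members) and gene positions from GENCODE M39 on GRCm39, and no coordinate was moved between builds. Members had between 330 (Mertk) and 32162 (Mfge8) reads per library. The litters are separate sets of pups by the labels, which give postnatal day 6, while another passage of the study gives an earlier age.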

Additional observations from a re-analysis of the deposited data

Results flagged for a closer look

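For Tyro3, the change with LPS+IFNγ differed between genotypes by -0.65 (Nlrx1-/- minus WT, exact permutation test over 8 litters, p = 0.0286), with the fall larger in each Nlrx1-/- litter than in each WT litter. The nearest litters were at -0.766 (WT) and -0.767 (Nlrx1-/-), and the edgeR interaction did not pass (edgeR adjusted p = 0.219). The exact p was the smallest among the members tested and was not adjusted over them. On counts summed per gene the same exact permutation test gave p = 0.0571. Over all genes, 8.31% had litter changes separated between genotypes in either direction. A single litter stood far from the other 3 of its group in 4 of 48 groups of levels or changes, and chance alone flags about 1 in 20. The Pros1 change in WT litter 3 was 1.09, above 0.90 to 0.92 in the others. The Mertk level in WT vehicle litter 3 was 4.22 log2 CPM, below the others at 4.33 to 4.35, and that in Nlrx1-/- LPS+IFNγ litter 1 was 4.47, above the others at 4.12 to 4.17. The Mertk change in WT litter 4 was 0.20, above -0.01 to 0.01 in the others.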

How the results depend on the processing

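Gas6, Pros1, Tyro3, Megf10, Gulp1 and Mfge8 kept the direction and the call of their average response in every alternative run. With library totals in place of TMM, a choice made after seeing the data, members called higher were 1 of 7 in WT and 1 of 7 in Nlrx1-/-, against 2 each, Axl being lost. In the interaction, members called lower were 0 of 7, against 1 with DESeq2 and 0 to 1 when a litter was left out. Between genotypes after LPS+IFNγ, members called lower were 1 of 7, against 2 with DESeq2, 2 with the replicate number as a block (Axl joining at -0.285, edgeR adjusted p = 0.039), 0 with only the stimulated libraries and 0 to 4 when a litter was left out. The labels do not say that a number marks a shared day across genotypes, and deviations of same-numbered WT and Nlrx1-/- libraries correlated at -0.24 to 0.36, not every pair above 0.1. Without the litter block, members higher in Nlrx1-/- were 1 (Axl 0.199, edgeR adjusted p = 0.0917), and the range was 1 to 2 when a litter was left out; the pairing changed no other count of members by over 1.5 times. The Tyro3 difference on summed counts was -0.653 (exact p = 0.0571).

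Values near 0 changed sign. The Mertk interaction was 0.002 with DESeq2, 0.003 with median-of-ratios scaling and -0.100 to 0.048 without single litters. The Mertk average was 0.001 in limma and -0.060 to 0.013 without single litters, and its WT change 0.048 in limma and -0.078 to 0.063. Without single litters, the Mertk change in Nlrx1-/- ranged from -0.090 to 0.003, the Megf10 interaction from -0.003 to 0.108, Megf10 between genotypes after LPS+IFNγ from -0.126 to 0.002 and Tyro3 between genotypes in vehicle from -0.067 to 0.111.

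The share of all genes called fell with no filter on low counts, which tests more genes, to 38% in the average response, 27.4% in WT and 31% in Nlrx1-/-. Between genotypes after LPS+IFNγ it was 16.4% with DESeq2, 8.80% with limma, 13.7% with the number block, 2.28% with no filter and 0% with only the stimulated libraries. Causes were not tested. With 4 litters per genotype the exact test cannot go below 0.0286, and a difference that misses the threshold is not shown to be absent.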

Other observations

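Transcript shares were looked at after the gene levels were seen. Mfge8 is quantified from 2 transcripts, of 2032 and 2143 bases. The longer took 8.96 ± 0.627% of the gene's TPM for WT with vehicle and 8.70 ± 1.71% with LPS+IFNγ, and 9.65 ± 1.96% for Nlrx1-/- with vehicle and 12.5 ± 1.77% with LPS+IFNγ (SD, n = 4). It gained 2.84 percentage points on average in Nlrx1-/- litters and changed by -0.261 in WT litters, and neither the change over all 8 litters (exact sign-flip test, p = 0.156) nor the difference between genotypes (exact permutation test, p = 0.0857) passed. The predicted Tyro3 transcript of 3703 bases took between 6.56% and 35.1% of the gene's TPM in stimulated libraries and between 17.5% and 32.7% in vehicle (exact sign-flip test of the change, p = 0.125). The largest Axl transcript share changed by -1.81 percentage points (exact sign-flip test, p = 0.391).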
